A study of Mus musculus with 24 samples.

Results

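The 35 genes described here are the enzymes, transporters and regulators of glycolysis together with genes that low oxygen induces. They were taken by name from a list, as 35 of the 36528 gene rows in each library's table. The list was chosen with earlier results of these data known, so its counts beside the share of all genes are not an independent test. The list holds 16 glycolytic enzymes, 5 transporters and regulators of glucose and lactate flux, 13 hypoxia-induced targets outside glycolysis, and Hif1a, the oxygen-regulated subunit of the hypoxia-inducible factor. All 35 passed the filter on low counts, which left 17468 genes to test.

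RNA was sequenced from cells sorted from mouse tumours of small-intestinal origin with the genotype code AKVPL, whose alleles the labels do not spell out. EpCAM, an adhesion molecule of epithelia, appears in the sample names, with "bulk" given as the sort. Libraries came from tumours given diphtheria toxin (DT), which the design used to deplete Lgr5+ cells, or saline, at 24, 48 and 96 h; each of these 6 groups has 4 libraries. All 6 groups share the genotype, the tissue and the sort. The labels give neither the ages of the animals nor the construct that makes Lgr5+ cells sensitive to the toxin, and do not say whether the libraries of a group came from separate animals or tumours. P-values therefore reflect only how far these samples spread, and that spread may be technical.

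Cells turn glucose into pyruvate by glycolysis, and lactate dehydrogenase then reduces pyruvate to lactate when glycolysis runs ahead of respiration. When oxygen is scarce, prolyl hydroxylases stop marking the HIF-1 alpha protein for destruction, and the stabilised factor raises transcription of glycolytic genes and of genes for blood vessel growth, pH control, collagen modification and mitophagy. This control acts on the HIF-1 alpha protein, so Hif1a mRNA is not a measure of the factor's activity. HIF binds a short promoter element, and many solid tumours, intestinal ones among them, express its targets.

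Total counts per library ran from 10888654 to 27707554. Lgr5, the marker of the cells targeted, averaged 81.4 ± 3.72 CPM (counts scaled to a common library total) in DT libraries and 200 ± 16.9 CPM in saline libraries at 24 h (SD, n = 4 each; log2 fold change -1.30 ± 0.12 SE). Its log2 fold change was -0.60 at 48 h and -0.43 at 96 h, and all 3 were past the threshold. At 48 h Lgr5 had 95.4, 117, 171 and 98.7 CPM in DT libraries and 164 to 198 CPM in saline libraries, so the library labelled DT replicate 3 lay in the saline range and the marker was not lowered there. The same library stood apart on the first principal component, which held 33.4% of the variance. It lay at -2.35, while the other 3 DT libraries at 48 h lay at 14.0 to 22.9 and saline libraries of 48 h at -18.9 to -12.7. By chi-square of the counts, DT replicate 1 at 48 h was the farthest from the other libraries of its group (22.6 to 33.2 per degree of freedom, against 4.87 to 10.5 among the other 3). Of 8 epithelial markers, 7 were abundant in every library (Epcam 1240 to 1645 CPM, Cdh1 1180 to 1541 CPM), while Krt20 had 3.49 to 12.1 CPM. Abundant too was the fibroblast collagen gene Col1a1 (967 to 4184 CPM). Markers of T, NK and B cells were near 0, and Nkg7 was at 0 in all 24 libraries.

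The deposited normalised value, nRPKM, is scaled by gene length, so it allows levels to be set beside each other. In saline libraries at 24 h, Aldoa (aldolase A, which splits fructose bisphosphate) was the highest of the 35 at 440 ± 28.7 nRPKM (SD, n = 4). Pkm (pyruvate kinase, 227 ± 9.73), Tpi1 (triosephosphate isomerase, 222 ± 11.1) and Ldha (the A subunit of lactate dehydrogenase, 196 ± 4.47) followed, and Pkm and Tpi1 did not differ beyond their spread. Slc2a1, the glucose transporter GLUT1, had 134 ± 7.54 nRPKM, ahead of Pfkl (liver-type phosphofructokinase) at 104 ± 5.57 and Ndrg1, a stress-responsive gene, at 96.1 ± 8.58. The last pair overlapped. The lowest were Pfkfb4 at 1.80, Pgam1 at 1.63 and Eno2 at 1.03 nRPKM.

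Part of this order rests on how reads were counted. The deposited count takes reads that align uniquely to a gene model, and several glycolytic genes have close copies elsewhere in the genome. Of the 50-base windows along the transcript of Gapdh (glyceraldehyde-3-phosphate dehydrogenase), 82.5% also occurred in transcripts of other genes, 222 of them in the GENCODE M21 annotation. The share was 72.2% for Eno1 (enolase 1), 68.0% for Pgk1 (phosphoglycerate kinase), 62.4% for Bnip3, 41.5% for Pgam1 (phosphoglycerate mutase), 36.6% for Higd1a and 34.4% for Pkm. It was 25.3% for Gpi1 and under that for the other 27 genes, with 0 for Hk2, Pfkm, Aldoc, Slc16a3, Pdk1, Pfkfb4, Egln1, Egln3, P4ha1, P4ha2, Kdm3a and Adm. For Pfkp it was 17.1%, all of it shared with Pitrm1. The use of strand is not stated, so reads from the stretch that Hk1 shares with its antisense gene Hk1os, 2.55% of the Hk1 windows, cannot be told apart. Gapdh had only 3.43 ± 0.23 nRPKM and Pgk1 14.7 ± 0.95 nRPKM in saline libraries at 24 h. With such shares, levels and changes of Gapdh, Eno1, Pgk1, Bnip3, Pgam1, Higd1a and Pkm are uncertain. The part of lost reads in the low values of Gapdh and Pgk1 was not tested.

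**Figure D1:**
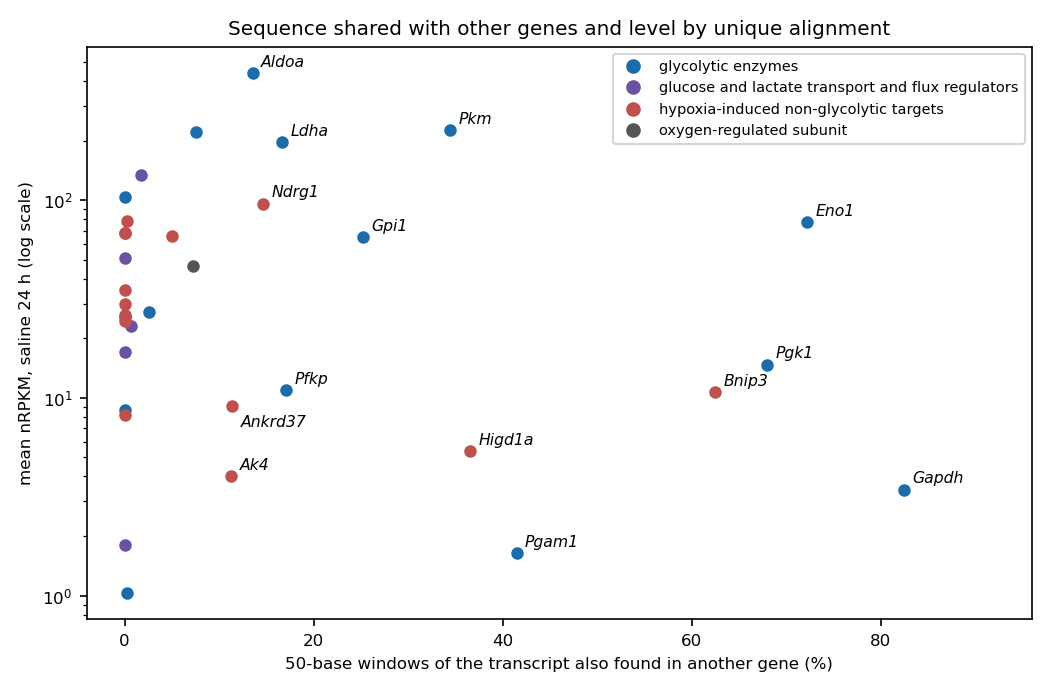
Each dot is 1 of the 35 genes, with the percentage of its transcript's 50-base windows that also occur in another gene on the horizontal axis and its mean deposited nRPKM in the 4 saline libraries at 24 h on the vertical log axis. Gapdh sits farthest right at 82.5% with 3.43 nRPKM, while Aldoa is highest at 440 nRPKM with 13.5%; genes above 10% are named.

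The core of the hypoxia response element, ACGTG or GCGTG, was searched on both strands of RefSeq promoter windows (GRCm38.p6), each running from 250 bases before to 50 after a transcription start. Windows were present for 34 of the 35 genes, all but Ndrg1, 53 windows in all. Of these, 79.2% held either core, against 58.0% of the 16074 windows of the genes tested. Some genes have several windows, and some of these overlap, as for Ak4, so windows are not independent. Counted by gene, 91.2% of the 34 held a core in at least 1 window, against 63.8% of 12606 genes tested. A gene with more windows has more chances to hold a core. The members had more windows per gene, 53 for 34 genes against 16074 for 12606. The part of this in the difference was not tested. ACGTG was in 50.9% of the 53 windows, against 24.0% in those of genes tested, and GCGTG in 58.5%, against 46.5%. The windows also held a median of 21 CG dinucleotides, against 18. By class, 74.1% of the windows of glycolytic enzymes, 85.7% of those of the transporters and regulators, and 83.3% of those of the non-glycolytic targets held a core. By gene these were 13 of 16 enzymes, 5 of 5 transporters and regulators and 12 of 12 targets. CACGTG, an E-box that contains ACGTG and is bound by other factors too, was in 11.3% of the 53 windows, against 9.24%. A match in a window is not evidence that the factor binds there.

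Printed are the windows with most matches of the gene in each class that fell most at 24 h, Aldoc, Slc2a1 and Bnip3, and of Ldha, chosen after its values were seen because its window held the most matches, 7, although its RNA did not pass the test. They lie at chr11:78322823-78323122 (plus strand), chr4:119108495-119108794 (plus strand), chr7:138909457-138909756 (minus strand) and chr7:46845554-46845853 (plus strand). Each is written 5′ to 3′ on the gene's strand, and capitals mark ACGTG and GCGTG or their reverse complements CACGT and CACGC. The Aldoc window holds 3 matches, that of Slc2a1 2 and that of Bnip3 5. CACGTG reads as ACGTG on both strands and counts as 2 matches, so the 7 matches of Ldha lie in 5 separate stretches and the 5 of Bnip3 in 4.
Aldoc: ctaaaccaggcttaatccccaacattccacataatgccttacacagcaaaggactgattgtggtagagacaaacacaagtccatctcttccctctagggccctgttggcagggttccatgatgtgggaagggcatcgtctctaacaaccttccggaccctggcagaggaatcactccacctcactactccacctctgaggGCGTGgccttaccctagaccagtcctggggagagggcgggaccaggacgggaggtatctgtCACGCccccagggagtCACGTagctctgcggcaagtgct
Slc2a1: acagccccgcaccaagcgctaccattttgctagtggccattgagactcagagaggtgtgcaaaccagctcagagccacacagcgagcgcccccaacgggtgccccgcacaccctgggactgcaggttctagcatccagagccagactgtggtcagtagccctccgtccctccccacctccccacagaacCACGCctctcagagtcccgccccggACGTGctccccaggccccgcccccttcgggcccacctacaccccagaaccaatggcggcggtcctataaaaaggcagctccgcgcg
Bnip3: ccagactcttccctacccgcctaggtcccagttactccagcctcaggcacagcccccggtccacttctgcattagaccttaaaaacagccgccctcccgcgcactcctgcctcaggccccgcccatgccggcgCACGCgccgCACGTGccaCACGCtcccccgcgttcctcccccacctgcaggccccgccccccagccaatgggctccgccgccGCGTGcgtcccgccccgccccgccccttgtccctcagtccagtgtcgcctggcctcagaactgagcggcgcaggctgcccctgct
Ldha: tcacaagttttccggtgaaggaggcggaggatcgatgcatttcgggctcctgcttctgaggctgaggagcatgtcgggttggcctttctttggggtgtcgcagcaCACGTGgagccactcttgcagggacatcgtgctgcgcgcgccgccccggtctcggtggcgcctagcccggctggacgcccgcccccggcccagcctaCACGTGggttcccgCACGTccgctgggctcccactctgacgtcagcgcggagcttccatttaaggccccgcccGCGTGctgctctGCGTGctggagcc

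At 24 h 12 of the 13 hypoxia-induced targets outside glycolysis were lower in DT libraries than in saline libraries. The enzymes of the later steps of glycolysis were not called in either direction by the test with all 24 libraries. Fits with fewer libraries called Pgk1 lower (without DT replicate 3) or Eno1 higher (only the 8 libraries of this time). Of the 35 genes, 23 fell and 0 rose (quasi-likelihood test of edgeR, p adjusted by Benjamini-Hochberg, threshold 0.05), where 38.7% of all genes tested were called, 18.9% lower and 19.9% higher. At an unadjusted p under 0.05, 1 gene of the 35, Eno1, was higher and 25 were lower. The share of all genes tested at that unadjusted threshold was not counted, and the shares given are for adjusted p. DESeq2 and limma voom also called 0 of the 35 higher. The median log2 fold change was -0.34 over the 35 and -0.00 over all genes tested. Every DT value lay below every saline value for 24 of the 35 genes, where 16.2% of all genes tested were separated in that direction, and above for 2, Eno1 and Ldha, where 18.1% of all genes tested were. In sorted bulk cells, fewer cells of a type that expresses these genes and less RNA per cell cannot be told apart.

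**Figure D2:**
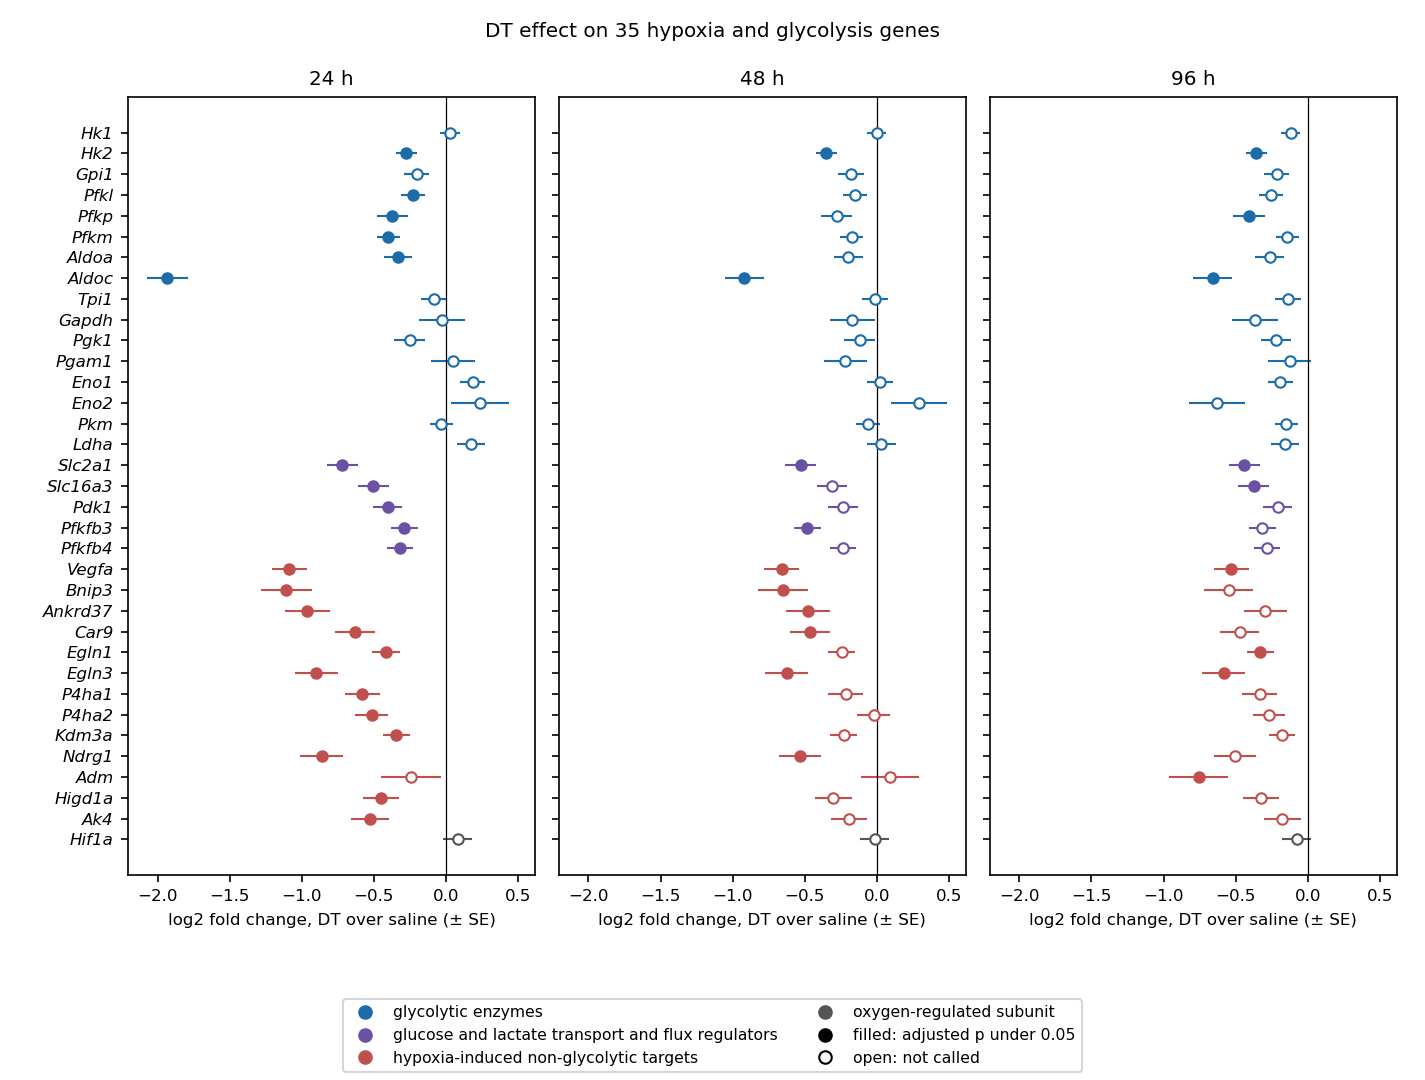
Dots give the log2 fold change of DT over saline (bars, SE) for each of the 35 genes at 24, 48 and 96 h, coloured by class and filled where the adjusted p was under 0.05. At 24 h 12 of 13 non-glycolytic targets, 5 of 5 transporters and regulators and 6 of 16 enzymes are filled, all to the left of 0, and the enzymes from Tpi1 down to Ldha are open.

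Of the 13 hypoxia-induced targets outside glycolysis, 12 fell at 24 h and 0 rose, with a median log2 fold change of -0.58. Vegfa encodes the growth factor that drives new blood vessels. It had 191, 167, 152 and 183 CPM in DT libraries, against 365, 344, 399 and 363 CPM in saline libraries. The groups did not overlap, and Vegfa was 2.12-fold lower in DT libraries (log2 -1.09 ± 0.12 SE, adjusted p = 4e-07). Bnip3, a receptor that sends mitochondria to autophagy, had 8.48, 9.03, 8.17 and 13.4 CPM in DT libraries and 23.1, 18.5, 20.9 and 21.8 CPM in saline libraries. All DT libraries were lower, with replicate 4 the highest of them (log2 -1.11 ± 0.18 SE, adjusted p = 3.65e-05), and 62.4% of the Bnip3 windows are shared with other genes. Ankrd37, an ankyrin repeat gene, had 6.0, 6.22, 7.98 and 10.7 CPM in DT libraries and 14.7, 13.3, 14.7 and 17.8 CPM in saline libraries (log2 -0.96 ± 0.16 SE).

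The oxygen sensors themselves are among the induced genes, in a feedback that returns HIF to its low level. Egln3, the prolyl hydroxylase PHD3, had 101, 107, 122 and 108 CPM in DT libraries and 210.4, 185, 213 and 208 CPM in saline libraries. It was 1.86-fold lower in DT libraries with no overlap (log2 -0.90 ± 0.15 SE, adjusted p = 6.06e-05). Egln1, the main oxygen sensor PHD2, had 67.9, 78.1, 92.0 and 77.8 CPM in DT libraries and 112, 103, 98.3 and 109 CPM in saline libraries. Its fall was smaller (log2 -0.42 ± 0.10 SE) and the groups again did not overlap. Hif1a had 255, 279.8, 276 and 246 CPM in DT libraries and 258, 276, 231 and 235 CPM in saline libraries. These overlapped, and Hif1a was not called (log2 0.08 ± 0.10 SE, adjusted p = 0.559).

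Ndrg1 had 171, 158, 169.5 and 204 CPM in DT libraries and 302, 287, 332 and 354 CPM in saline libraries, 1.82-fold lower in DT libraries (log2 -0.86 ± 0.15 SE). Car9, the carbonic anhydrase at the cell surface that controls pH, had 111, 105, 104 and 99.9 CPM in DT libraries and 156, 155, 172 and 167 CPM in saline libraries (log2 -0.63 ± 0.14 SE). Both were separated completely. P4ha1 and P4ha2, the alpha subunits of the collagen prolyl hydroxylase, fell together, with log2 fold changes of -0.58 ± 0.12 and -0.52 ± 0.11. P4ha2 had 61.9 to 68.3 CPM in DT libraries and 87.6 to 97.0 CPM in saline libraries, and P4ha1 71.4 to 80.5 CPM in DT libraries and 110.0 to 120.0 CPM in saline libraries. Ak4 (a mitochondrial adenylate kinase, log2 -0.53), Higd1a (a mitochondrial inner membrane protein, -0.45) and Kdm3a (a histone demethylase, -0.34) also fell without overlap. For Higd1a, 36.6% of the windows are shared with other genes. The exception was Adm, the vasodilator peptide adrenomedullin, with 9.25, 11.4, 12.3 and 9.58 CPM in DT libraries and 12.8, 11.6, 15.6 and 10.7 CPM in saline libraries (log2 -0.24 ± 0.21 SE, adjusted p = 0.387).

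**Figure D3:**
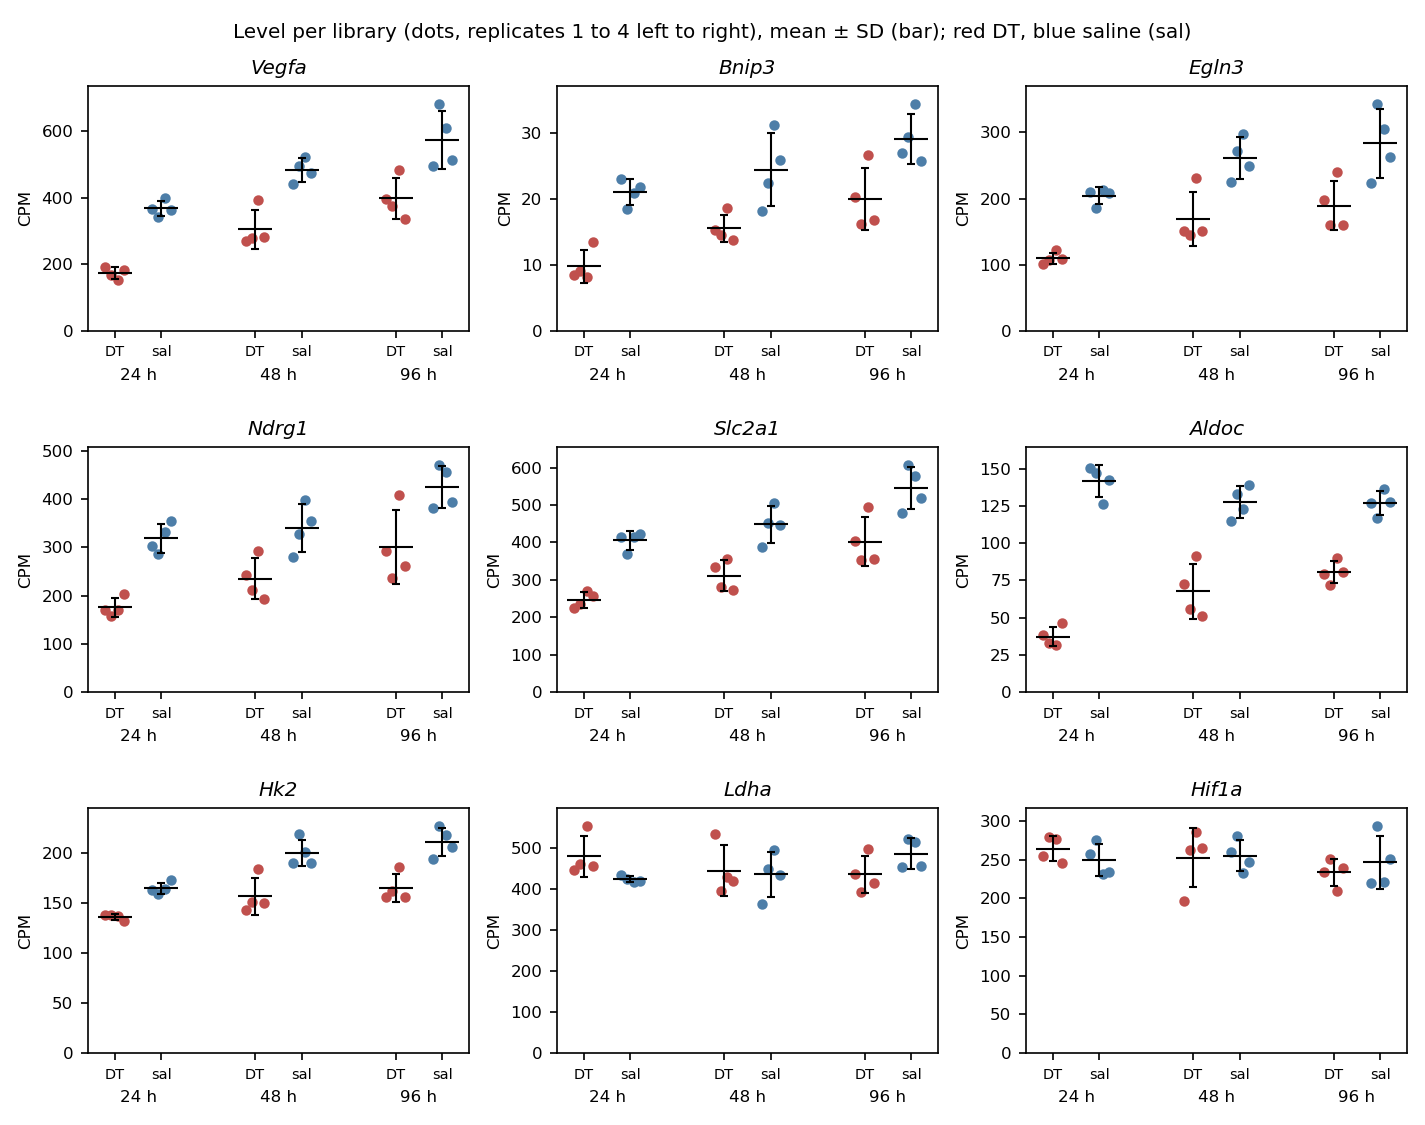
Each dot is the CPM of a library, with the mean and SD of the 4 libraries in black and DT (red) left of saline (blue) at 24, 48 and 96 h. Vegfa, Egln3, Ndrg1, Slc2a1 and Aldoc lie lower in all DT libraries at 24 h, while Hif1a overlaps at every time and Ldha is 447 to 554 CPM in DT libraries against 419 to 436 CPM in saline libraries at 24 h.

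All 5 transporters and regulators fell at 24 h and none of their groups overlapped. Slc2a1, which brings glucose into the cell, had 224, 234, 269.8 and 256 CPM in DT libraries and 415, 369, 414 and 423 CPM in saline libraries. It was 1.65-fold lower in DT libraries (log2 -0.72 ± 0.11 SE, adjusted p = 1.4e-05). Slc16a3, the lactate exporter MCT4, had 94.9, 104, 118 and 100.3 CPM in DT libraries and 149, 153, 146 and 143 CPM in saline libraries (log2 -0.50 ± 0.11 SE). Pdk1, the kinase that closes the pyruvate dehydrogenase gate into the mitochondrion, fell by 0.41 on the log2 scale. Pfkfb3 and Pfkfb4 make and break down the activator of phosphofructokinase, and had log2 fold changes of -0.29 ± 0.09 and -0.32 ± 0.09. Pfkfb3 was no longer called without DT replicate 2 or without DT replicate 3 of this time.

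The 16 glycolytic enzymes were less uniform at 24 h: 6 fell, 0 rose and 10 were not called, with a median log2 fold change of -0.14. All 6 act in the first phase of the pathway, from hexokinase to aldolase. Aldoc, aldolase C, changed most of the 35: it had 38.0, 33.0, 31.6 and 46.0 CPM in DT libraries and 151, 147, 126 and 142 CPM in saline libraries. This was 3.82-fold lower in DT libraries (log2 -1.93 ± 0.14 SE, adjusted p = 2.02e-09), with a wide gap between the groups. Aldoa, which catalyses the same step and is far more abundant, had 706, 694, 819 and 815 CPM in DT libraries and 1042, 917, 959 and 903 CPM in saline libraries (log2 -0.33 ± 0.10 SE). The 3 phosphofructokinase genes, which encode the committing step, fell by 0.40 (Pfkm, muscle type), 0.37 (Pfkp, platelet type) and 0.23 (Pfkl) on the log2 scale. Hk2, the inducible hexokinase that traps glucose, had 137, 137, 137 and 132 CPM in DT libraries and 163, 159, 164 and 172 CPM in saline libraries (log2 -0.28 ± 0.07 SE).

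Its constitutive relative Hk1 had 154, 162, 180.2 and 164 CPM in DT libraries and 173, 160.3, 151 and 164 CPM in saline libraries, which overlapped (log2 0.03 ± 0.07 SE). Gpi1, glucose phosphate isomerase, was lower in every DT library but not called (log2 -0.20 ± 0.09 SE, adjusted p = 0.0714). None of the 8 genes from triosephosphate isomerase to lactate dehydrogenase was called. Of these, Gapdh, Eno1, Pgk1, Pgam1 and Pkm share 34.4 to 82.5% of their windows with other genes, so the lack of a call is uncertain there. Tpi1, Gapdh, Pgam1 and Pkm had log2 fold changes between -0.08 and 0.05, Pgk1 had -0.25 ± 0.11 and Eno2, the neuronal enolase, 0.24 ± 0.20. Ldha, which makes lactate, had 447, 463, 554 and 457 CPM in DT libraries and 436, 425, 419 and 420.2 CPM in saline libraries. All DT values were higher, yet Ldha was not called (log2 0.18 ± 0.10 SE, adjusted p = 0.163). Eno1 had 201, 201, 229 and 197 CPM in DT libraries and 195, 183, 173 and 177 CPM in saline libraries (log2 0.18 ± 0.09 SE, adjusted p = 0.0994). With only the 8 libraries of this time in the fit, Eno1 was called higher and Gpi1 lower. Pgk1 was called lower without DT replicate 3, and Gpi1 without DT replicate 4. Pfkl was no longer called without DT replicates 1, 2 or 3 or saline replicate 1, each left out in turn, and, with no low-count filter, neither Pfkl nor Pfkfb4 was.

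Summed CPM put the classes side by side. The 13 targets summed to 963 to 1055 CPM in DT libraries and 1553 to 1741 CPM in saline libraries at 24 h. The 16 enzymes summed to 3489 to 3954 CPM in DT libraries and 3987 to 4332 CPM in saline libraries. Every DT sum was lower, with a narrow gap between the groups. The 5 transporters and regulators summed to 556 to 615 CPM in DT libraries and 799.9 to 869 CPM in saline libraries.

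**Figure D4:**
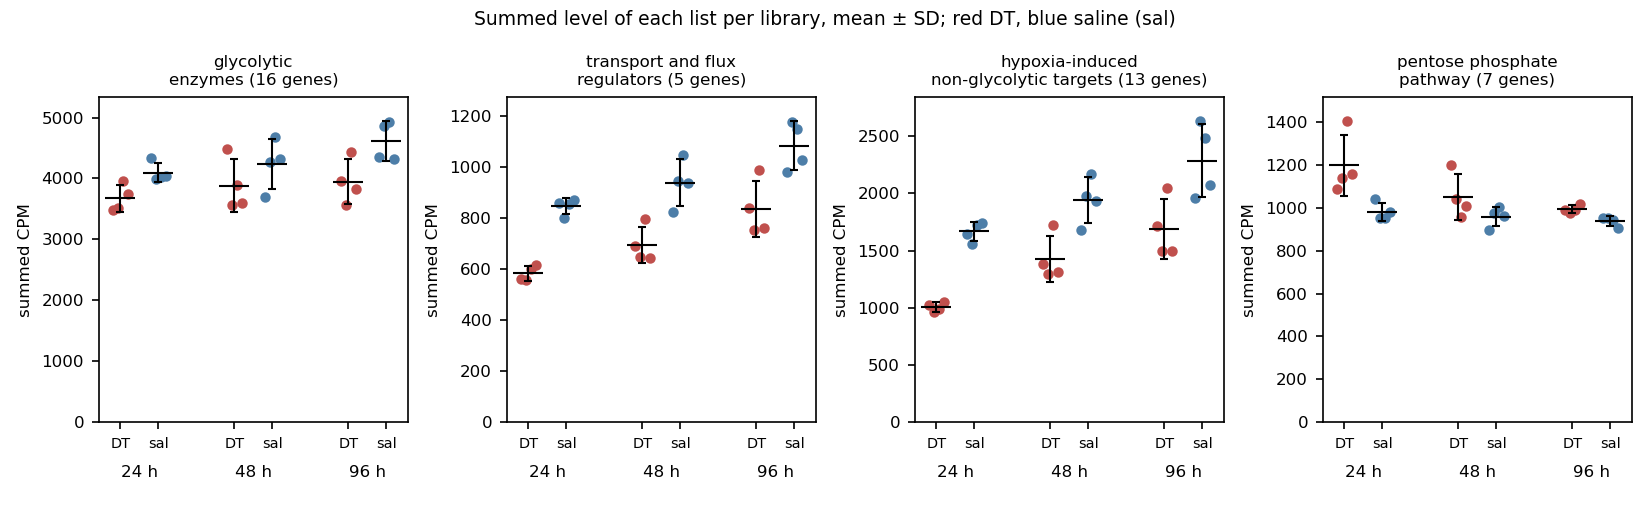
Dots give the summed CPM of each class in each library, with mean and SD in black and DT (red) left of saline (blue) at each time. For the 13 targets at 24 h the DT libraries (963 to 1055 CPM) lie far below the saline libraries (1553 to 1741 CPM), and the 7 genes of the pentose phosphate pathway run the other way (1086 to 1402 CPM in DT libraries, 949.9 to 1040 CPM in saline libraries).

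Related genes outside the 35 were taken from lists of the same pathways, also chosen with earlier results of these data known. Of 32 other hypoxia-induced genes, 17 fell, 3 rose and 12 were not called at 24 h, with a median log2 fold change of -0.27. Of all genes tested, 18.9% were called lower and 19.9% higher. The called genes with the smallest p were Bnip3l, another mitophagy receptor (85.6 ± 4.62 CPM in DT libraries and 116 ± 3.63 CPM in saline libraries, SD, n = 4 each), Mxi1, a MYC antagonist (log2 -0.49), Selenbp1, a selenium-binding protein (-1.05), and Pam, which amidates peptides (-0.69). Of 25 other genes of glycolysis and pyruvate use, 3 rose and 4 fell, with a median of 0.10. Neither count was above the share of all genes tested (19.9% higher, 18.9% lower). Pdk4, another pyruvate dehydrogenase kinase, had 3.14 ± 0.35 CPM in DT libraries and 15.5 ± 4.69 CPM in saline libraries (log2 -2.29 ± 0.30 SE), and Pdk2 was lower too (log2 -0.76 ± 0.12 SE). Pdp1, a phosphatase that reverses these kinases, was lower as well (log2 -0.49 ± 0.09 SE). Slc16a1, the lactate carrier MCT1, was higher, at 217 ± 41.0 CPM in DT libraries and 152 ± 9.71 CPM in saline libraries (log2 0.51 ± 0.09 SE).

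The pentose phosphate pathway branches from glucose 6-phosphate to make NADPH and ribose. It had 6 of 7 genes called higher at 24 h and 0 lower, with a median log2 fold change of 0.23. Of all genes tested, 19.9% were called higher. Pgd, 6-phosphogluconate dehydrogenase, had 219 ± 26.6 CPM in DT libraries and 175 ± 7.44 CPM in saline libraries (log2 0.32 ± 0.07 SE). Tkt, transketolase, rose by 0.32, and Rpia, ribose 5-phosphate isomerase, and G6pdx, the first enzyme of the pathway, rose by 0.23 each on the log2 scale. At 48 and 96 h 0 of the 7 were called in either direction, with median log2 fold changes of 0.12 and 0.05, and 0 of the 7 had an effect that differed from 24 h by the interaction test (edgeR). At an unadjusted p under 0.05, Pgd alone was higher at 48 h and 0 of the 7 at 96 h, and in the interaction tests Pgd alone differed, at 96 h against 24 h. Of 12 other genes of oxygen sensing, 3 rose at 24 h, Rbx1 (log2 0.31), Cul2 (0.23) and Elob (0.34), where 19.9% of all genes tested did. They encode parts of the ubiquitin ligase that takes up hydroxylated HIF, of which Vhl (log2 -0.01) and Eloc (0.11) were not called. Siah2, a ligase that targets the prolyl hydroxylases, fell by 0.42, and Siah1a also fell, where 18.9% of all genes tested did.

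Markers of other cell types were examined in the same comparison. Of 9 fibroblast markers 2 rose (Dcn and Pdgfra), of 8 endothelial markers 1 (Tek), and of 9 macrophage and monocyte markers 1 (Fcgr1). These counts are near or under the share of all genes tested, of which 19.9% were called higher and 18.9% lower. By sign, 0 of 9 fibroblast and 0 of 8 endothelial markers were negative, with median log2 fold changes of 0.53 and 0.27. Of the 9 macrophage and monocyte markers 6 were negative (median -0.12), where 8798 of the 17468 genes tested were. The summed fibroblast markers ranged from 2990 to 7004 CPM in DT libraries and from 3583 to 4197 CPM in saline libraries, and the summed endothelial markers from 309 to 351 CPM in DT libraries and 229 to 328 CPM in saline libraries. Of 8 epithelial markers, Krt18, Krt19 and Cldn7 rose while Epcam (log2 -0.26 ± 0.06 SE) and Cdh1 fell. Summed, they were 7241 to 9045 CPM in DT libraries and 7005 to 7592 CPM in saline libraries. The part of any shift in cell types in the results on the 35 genes was not tested.

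At 48 h fewer of the 35 were called lower in DT libraries. Of the 35, 10 fell and 0 rose, where 11.3% of all genes tested were called, 6.5% lower and 4.83% higher. At an unadjusted p under 0.05, 0 of the 35 were higher and 18 were lower, and DESeq2 and limma voom called 0 higher as well. The share of all genes tested at the unadjusted threshold was not counted. The median log2 fold change was -0.22, against -0.00 over all genes tested. Of the 13 targets 6 fell (median -0.30), of the 5 transporters and regulators 2 (median -0.31) and of the 16 enzymes 2 (median -0.16). The groups were separated with DT lower for 7 of the 35, where 8.65% of all genes tested were, and with DT higher for 1, Eno2, where 7.16% were.

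Vegfa had 270.1, 279, 394 and 281 CPM in DT libraries and 440.0, 495, 523 and 476 CPM in saline libraries at 48 h. It was still lower in every DT library (log2 -0.66 ± 0.12 SE, adjusted p = 0.00121). Egln3 had 151, 145, 230.2 and 152 CPM in DT libraries and 224, 273, 298 and 249 CPM in saline libraries (log2 -0.62 ± 0.15 SE). In both genes DT replicate 3, the library with Lgr5 in the saline range, was the highest of its group, and for Egln3 it reached into the saline range. Both genes had a log2 fold change of -0.81 when that library was left out. Slc2a1 had 333, 279, 357 and 272 CPM in DT libraries and 387, 453, 505 and 447 CPM in saline libraries (log2 -0.53 ± 0.11 SE). Aldoc had 72.6, 55.8, 91.1 and 50.7 CPM in DT libraries and 115, 133, 123 and 139 CPM in saline libraries, 1.89-fold lower in DT libraries (log2 -0.92 ± 0.14 SE). Neither gene's groups overlapped, and the same held for Hk2 (log2 -0.35 ± 0.07 SE) and Pfkfb3 (log2 -0.48 ± 0.09 SE).

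Bnip3 (log2 -0.65), Ndrg1 (-0.53), Ankrd37 (-0.48) and Car9 (-0.46) fell with adjusted p between 0.0173 and 0.0407. All 4 calls were lost without DT replicate 4 or without saline replicate 3. Ankrd37, Car9 and Ndrg1 were lost without DT replicate 2 or saline replicate 4, and Ankrd37 and Car9 without saline replicate 2. Without DT replicate 3, 15 of the 35 fell and 0 rose, with Pfkp, Slc16a3, Pfkfb4, Egln1 and Kdm3a added, the median was -0.28 and 15.6% of all genes tested were called. Then 8 of the 13 targets, 4 of the 5 transporters and regulators and 3 of the 16 enzymes fell, and log2 fold changes were -1.10 for Aldoc, -0.60 for Slc2a1 and -0.74 for Bnip3. Without DT replicate 1, 11 of the 35 fell, with Pfkm added, and without saline replicate 1, 11 fell, with Slc16a3 added. In those runs 1486 and 1190 of the 17468 genes tested were called, against 1979 with all libraries. With only the 8 libraries of this time in the fit, Hk2, Car9 and Ndrg1 were no longer called. P4ha2 and Hif1a were near 0 (log2 -0.02 each), as were Tpi1, Eno1 and Ldha (-0.01 to 0.03). Of the 32 other hypoxia-induced genes 5 fell at 48 h, where 6.5% of all genes tested did. Among them were Gbe1, a glycogen branching enzyme (log2 -0.45), Ero1l, an oxidase of protein folding (-0.98), Pam (-0.41) and Zfp395 (-0.29). Pdk4 had 4.42 ± 2.36 CPM in DT libraries and 12.5 ± 1.36 CPM in saline libraries (log2 -1.53 ± 0.29 SE). Of the markers of other cell types, Tek rose (log2 0.54) and Itgam, a macrophage marker, fell (-0.98), where 4.83% of all genes tested rose and 6.5% fell. By sign, 0 of 9 fibroblast and 1 of 8 endothelial markers were negative (median log2 fold changes 0.55 and 0.17). Of 9 macrophage and monocyte markers 8 were negative (median -0.50), where 8787 of the 17468 genes tested were. The summed fibroblast markers were 7277 to 11781 CPM in DT libraries, highest in replicate 1, and 3736 to 7491 CPM in saline libraries, and their part in the results was not tested.

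At 96 h all 35 log2 fold changes were negative, where 8986 of the 17468 genes tested were, and few of the 35 passed the test. Genes that move together do not give independent signs. Of the 35, 9 fell and 0 rose, where 4.03% of all genes tested were called, 3.02% lower and 1.01% higher. At an unadjusted p under 0.05, 0 were higher and 24 lower, and DESeq2 and limma voom called 0 higher. The share of all genes tested at the unadjusted threshold was not counted. The median log2 fold change was -0.29, against -0.01 over all genes tested. The 9 were Hk2, Pfkp and Aldoc of the 16 enzymes (median -0.22), Slc2a1 and Slc16a3 of the 5 transporters and regulators (median -0.31), and Vegfa, Egln1, Egln3 and Adm of the 13 targets (median -0.33). Groups were separated with DT lower for 7 of the 35, where 6.7% of all genes tested were, and with DT higher for 0, where 4.91% were.

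Vegfa had 395, 375, 485 and 337 CPM in DT libraries and 494, 681, 610.5 and 513 CPM in saline libraries at 96 h, 1.44-fold lower in DT libraries (log2 -0.53 ± 0.12 SE, adjusted p = 0.0125). Aldoc had 79.2, 72.1, 90.1 and 80.5 CPM in DT libraries and 127, 117, 136 and 128 CPM in saline libraries (log2 -0.66 ± 0.14 SE). Hk2 had 156, 161, 186 and 156 CPM in DT libraries and 194, 226, 218 and 206 CPM in saline libraries (log2 -0.36 ± 0.07 SE). None of these 3 overlapped between DT and saline. Adm, not called at the earlier times, had 10.8, 12.9, 13.8 and 10.5 CPM in DT libraries and 13.3, 18.3, 31.6 and 17.9 CPM in saline libraries (log2 -0.76 ± 0.20 SE, adjusted p = 0.0372). Its groups overlapped, and saline replicate 3 was the highest. Slc2a1 (log2 -0.44 ± 0.11 SE) and Egln3 (log2 -0.58 ± 0.15 SE) also overlapped.

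Hk2 and Aldoc were called with every library of this time left out in turn. The other 7 were lost together without DT replicate 2 or DT replicate 4, which left 2 of the 35 called, and with only the 8 libraries of this time in the fit. Of all genes tested, 355, 379 and 659 were called in these runs, in that order. Without saline replicate 3, 3 were called, with Vegfa the only one of the 7 left, and 393 of all genes tested were called. Without saline replicate 2, Vegfa and Adm were left of the 7, and without saline replicate 4, Slc2a1, Vegfa and Egln3. Without DT replicate 1, Slc2a1 and Vegfa were left, and Eno2 and Pfkfb4 were added. Without saline replicate 1, 12 of the 35 fell, with Eno2, Car9 and P4ha1 added, and 582 of the 17468 genes tested were called. Without DT replicate 3, 13 of the 35 fell, with Pfkfb3, Bnip3, Car9 and Ndrg1 added. The median of the 35 was then -0.37, and 567 of all genes tested were called, against 704 with all libraries. Slc16a3 and Egln1 were not called under the other 3 scalings or the other 2 filters, and with no low-count filter Egln3 and Adm were lost too. Of the 32 other hypoxia-induced genes 5 fell at 96 h, where 3.02% of all genes tested did. Among them were Bhlhe40, a transcriptional repressor (log2 -0.42), Pam (-0.42), Ero1l (-0.79) and Bnip3l (-0.21). Pdk4 had 4.42 ± 1.21 CPM in DT libraries and 10.3 ± 3.59 CPM in saline libraries (log2 -1.25 ± 0.29 SE). The summed fibroblast markers were 5624 to 10240.1 CPM in DT libraries and 2836 to 10213 CPM in saline libraries, and the summed endothelial markers 454 to 669.9 CPM in DT libraries and 369.8 to 705 CPM in saline libraries.

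Hk2, Aldoc, Slc2a1, Vegfa and Egln3 were called lower at all 3 times, 5 of the 35, where 382 of all genes tested (2.19%) were. Another 8 were called at 2 times, 11 at 1 and 11 at none. The shares of all genes tested that were called at 2 times, at 1 or at none were not counted. The size of the DT effect was compared between times by an interaction test. Against 24 h, Aldoc alone of the 35 had a different effect at 48 h (difference in log2 fold change 1.02 ± 0.19 SE, adjusted p = 0.00448), where 2.89% of all genes tested were called, 0.555% with a less negative or more positive DT effect at 48 h and 2.34% the other way.

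At 96 h against 24 h, 5 of the 35 differed, where 11.9% of all genes tested did, 4.08% upward and 7.82% downward. The DT effect was less negative at 96 h for Aldoc (difference 1.27 ± 0.19 SE, adjusted p = 0.000292), Vegfa (0.55 ± 0.17 SE, adjusted p = 0.0368) and Ankrd37 (0.67 ± 0.22 SE, adjusted p = 0.0448). It was more negative for Eno1 (-0.38 ± 0.12 SE) and Eno2 (-0.86 ± 0.28 SE), both of which had positive log2 fold changes at 24 h and negative ones at 96 h. Aldoc kept this call with each of the 16 libraries left out in turn. Vegfa lost it in 8 of those 16 runs, Eno1 in 10, Eno2 in 12 and Ankrd37 in 13, and Aldoc alone was called without DT replicates 2 or 3 or saline replicates 3 or 4 of 24 h.

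The levels themselves shifted with time in saline libraries too. At 48 h against 24 h 0 of the 35 were called in saline libraries (edgeR), where 0.355% of all genes tested were. At an unadjusted p under 0.05, 6 were higher and 0 lower, and DESeq2 called 1 (Hk2) and limma voom 2 (Hk2 and Vegfa), all higher. At 96 h against 24 h, 9 of the 35 were higher in saline libraries and 0 lower, where 3.22% of all genes tested were called, 2.09% higher and 1.13% lower. At an unadjusted p under 0.05, 20 were higher and 0 lower. For neither comparison was the share of all genes tested at the unadjusted threshold counted. The 9 were Vegfa (log2 0.64 ± 0.12 SE), P4ha2 (0.53), P4ha1 (0.52) and Ak4 (0.50) of the targets, Slc2a1 (0.43) and Slc16a3 (0.46), and Hk2 (0.36), Pfkp (0.43) and Eno2 (0.86) of the enzymes.

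In DT libraries Vegfa averaged 173 ± 17, 306 ± 58.7 and 398 ± 62.7 CPM at 24, 48 and 96 h (SD, n = 4 each). In saline libraries it averaged 368 ± 23.2, 483 ± 34.7 and 575 ± 87.4 CPM at those times. Aldoc averaged 37.2 ± 6.52, 67.6 ± 18.3 and 80.5 ± 7.43 CPM in DT libraries, while its means in saline libraries were 142 ± 10.7, 128 ± 10.7 and 127 ± 8.02 CPM. Only Vegfa was called at 96 h against 24 h in saline with each of these 8 libraries left out in turn, and it was the only one left without saline replicate 2 of 96 h. Between 1 and 4 of the 9 calls were left without any 1 of the saline libraries of 24 h or without replicates 2 or 3 of 96 h.

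Other cell types moved with the same comparison. All 8 endothelial markers were higher in saline libraries at 96 h than at 24 h (median log2 1.30), as was 1 of 9 fibroblast markers (Dcn, log2 1.23). Of 9 macrophage and monocyte markers 5 were lower (Lyz2, log2 -1.72 ± 0.34 SE). Of all genes tested, 2.09% were higher and 1.13% lower. The summed endothelial markers were 369.8 to 705 CPM at 96 h and 229 to 328 CPM at 24 h, and the summed fibroblast markers 2836 to 10213 CPM at 96 h and 3583 to 4197 CPM at 24 h. The 8 epithelial markers had a median log2 fold change of -0.05. The part of these cell types in the rise of the 9 genes was not tested.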

How the data were processed

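PolyA RNA of the sorted cells was extracted with the RNeasy Micro kit, per the labels' protocols, and 1 table per library was deposited for 24 libraries. Per the file headers, each count is of reads that align uniquely to the gene model; the deposited counts were tested unchanged. Per the file headers, the deposited nRPKM is an RPKM with a size-factor adjustment; it served for levels between genes and for recovering the authors' size factors. GSNAP and GRCm38 are named in the submitters' processing notes; the sources used here give no versions, annotation or strand setting. Symbols came from a RefSeq table that matched 31049 identifiers (85.0%).

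The test was that of edgeR 4.0.16 under R 4.3.3 (robust quasi-likelihood test, TMM scaling, filtering by expression within groups, 17468 genes). 1 model held all 24 libraries, with 6 group means and 18 degrees of freedom for the spread. P-values are two-sided, adjusted by Benjamini-Hochberg over all genes tested, with a threshold of 0.05. SE was obtained by dividing each log2 change by the root of its F statistic, and CPM use TMM library sizes of the genes tested. Replicates differed beyond sampling noise (chi-square per degree of freedom of at least 4.24). On simulated counts for DT against saline at 24 h (17303 genes), 68% of 1.5-fold and 73% of 2-fold changes were recovered, with 5 false calls of 146. Far fewer genes were changed there than were called in the data (6765), which makes the adjusted threshold stricter. The recovery therefore does not describe the real comparison at 24 h.

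The members and lists were chosen with earlier results of these data known. All 35 members are named; of each other list, at most the 4 called genes with the smallest p and at least 1 CPM are given with values, and the other genes called are counted or named without values. The exceptions are genes named in counts of 5 or fewer. Other scalings, filters, DESeq2 1.42.0, limma 3.58.1 voom with quality weights, fits of only the libraries compared, a replicate block and each library left out were tried. Precision rests on counting error and the spread of 4 libraries a group.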

Additional observations from a re-analysis of the deposited data

Results flagged for a closer look

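In groups of 4 libraries, a library was noted where its gap to the nearest other was large for the range of the group (Dixon's test at 95%). This happened in 16 of 210 gene-by-group values, and chance gives about 1 in 20. DT replicate 3 at 48 h was high for Vegfa (394 CPM, others 270.1 to 281 CPM) and Egln3 (230.2 CPM, others 145 to 152 CPM). DT replicate 1 at 48 h was high for Gpi1 (213 CPM), Pfkl (471 CPM) and Tpi1 (484 CPM). DT replicate 3 at 96 h was high for Pdk1 (129.6 CPM), Ankrd37 (19.5 CPM) and Ak4 (41.6 CPM). At 24 h DT replicate 3 was high for Eno1 (229 CPM) and Ldha (554 CPM). DT replicate 4 of that time was low for Hk2 (132 CPM) and Pfkp (97.1 CPM) and high for Bnip3 (13.4 CPM). Among saline libraries, replicate 1 was high for Pfkl at 24 h (466 CPM) and low for Pgk1 at 48 h (24.4 CPM), and replicate 2 was low for Slc2a1 at 24 h (369 CPM).

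The DT effect differed between times by the interaction test for Aldoc at 48 h against 24 h (1.02 on the log2 scale). At 96 h against 24 h it differed for Aldoc (1.27), Vegfa (0.55), Ankrd37 (0.67), Eno1 (-0.38) and Eno2 (-0.86).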

How the results depend on the processing

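At 24 h, 5 to 8 of 16 enzymes and 12 of 13 targets were called under every alternative run (8 enzymes, 1 of them higher, with only the libraries compared); leaving out each library gave 5 to 7 enzymes and 12 to 12 targets. At 48 h, where 2 enzymes and 6 targets were called, limma voom called 7 enzymes, the fit of only the libraries compared 1 enzyme, and no low-count filter left 3 targets; leaving out each library gave 2 to 3 enzymes and 2 to 8 targets. At 96 h, where 3 enzymes and 4 targets were called, limma voom called 5 enzymes and 7 targets, DESeq2 7 targets, no low-count filter 1 target and only the libraries compared 0 targets; leaving out each library gave 2 to 4 enzymes and 0 to 7 targets. The interaction of 96 h against 24 h called 5 members, and 3 with median-of-ratios scaling, the authors' size factors or only the libraries compared, and 2 without a low-count filter; leaving out each library gave 1 to 6, and 1 to 2 for 48 h against 24 h, where 1 was called. In saline libraries at 48 h against 24 h, where 0 were called, DESeq2 called 1, limma voom 2 and only the libraries compared 2, and leaving out each library gave 0 to 0; at 96 h, where 9 were called, leaving out each library gave 1 to 13. The cause of these shifts was not tested, beyond fewer samples in the left-out and compared-only fits and more genes tested without the filter. With each library left out, 5907 to 6704 of the 17468 genes tested were called at 24 h. At 48 h this was 1176 to 2719 and at 96 h 355 to 671. No called value changed sign under any alternative run. Of the members' values in the 3 comparisons of DT with saline, 1654 kept their side of the threshold, 88 were no longer called and 43 became called. Other scalings moved the median of all genes by at most 0.03 on the log2 scale. The counts gave no sign that replicate numbers pair the samples (correlation of deviations -0.52 to 0.17 over 12 pairs, 2 over 0.1, 3 best with their own number). A weak pairing would not show in these correlations. With a replicate block, 22, 9 and 8 members were lower at 24, 48 and 96 h, against 23, 10 and 9 without it. Pfkl was lost at 24 h, Car9 at 48 h and Pfkp, Slc16a3 and Egln1 at 96 h, where Bnip3 and Ndrg1 were gained, and 3 members were called in the interaction of 96 h against 24 h. Low counts limit Gapdh, Pgam1 and Eno2.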
